A study of Mus musculus with 8 samples.

Results

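The 10 genes described here encode the acyltransferases and the lipin phosphatases that build triglyceride in the liver: *Gpam*, *Gpat4*, *Agpat2*, *Agpat3*, *Lpin1*, *Lpin2*, *Lpin3*, *Mogat1*, *Dgat1* and *Dgat2*. They were taken by symbol from a table of 27179 genes, each matched 1 row, and all 10 had reads. The table comes from RNA sequencing of whole liver from 4 wild-type and 4 V227A male mice of the C57BL/6NHsd strain, adults fasted for 6 h. The V227A animals are homozygous for a valine to alanine change in PPARα, a nuclear receptor activated by fatty acids. The change was made by base editing of zygotes, and the colony descends from a heterozygous founder backcrossed to C57BL/6NHsd and bred as heterozygotes. The mice carry the change in every tissue, and the diet of the 8 sequenced mice is not given in the labels.

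The value used for each gene is its average log2 CPM (counts scaled to a common library size, on a log2 scale), a mean over all 8 livers of both genotypes that the authors made. It has no SD, and no difference between wild-type and V227A was computed, because values per liver were not analysed here. The results are therefore levels of the genes in this tissue and the proportions between them. In whole tissue, fewer cells of a type and less RNA per cell cannot be told apart. The 5 hepatocyte markers lay between 10.85 and 16.09 on the log2 CPM scale. The 4 adipocyte markers lay between -3.61 and 0.76, and the 3 skeletal muscle markers between -1.46 and -0.40. Other cell types were present: the highest marker was at 6.36 for Kupffer cells, 6.64 for stellate cells and 5.47 for endothelial cells. In the intestine list the highest was at 6.43.

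The glycerol-3-phosphate pathway adds fatty acids to a glycerol backbone in turn. Glycerol-3-phosphate acyltransferases add the first acyl chain, lysophosphatidate acyltransferases add the next and give phosphatidate, the lipins remove the phosphate to give diacylglycerol, and diacylglycerol acyltransferases add the last chain. Monoacylglycerol acyltransferases reach diacylglycerol by a separate route that is best known from the absorbing intestine. In liver the product is stored in lipid droplets or exported in very low density lipoprotein.

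The DNA around a RefSeq transcription start of each of the 3 lipin genes is shown first, since these act at the same step. The level of *Lpin3* was far below those of *Lpin1* and *Lpin2*. A link between these sequences and the levels was not tested. Each stretch of 280 bases runs 5′ to 3′ on the gene's own strand, from 250 bases before a RefSeq transcription start to 30 bases after it, in build GRCm38.p6. Capitals mark a match to AGGTCA, the core motif of nuclear receptors, or to CACGTG, the E-box of basic helix-loop-helix factors.
*Lpin1*, chr12:16610937-16611216, minus strand: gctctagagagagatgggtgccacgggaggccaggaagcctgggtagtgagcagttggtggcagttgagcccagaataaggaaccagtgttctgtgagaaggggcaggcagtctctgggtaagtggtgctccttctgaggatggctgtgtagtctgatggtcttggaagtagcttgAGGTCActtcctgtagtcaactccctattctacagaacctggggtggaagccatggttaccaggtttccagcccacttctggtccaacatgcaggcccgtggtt
*Lpin2*, chr17:71183282-71183561, plus strand: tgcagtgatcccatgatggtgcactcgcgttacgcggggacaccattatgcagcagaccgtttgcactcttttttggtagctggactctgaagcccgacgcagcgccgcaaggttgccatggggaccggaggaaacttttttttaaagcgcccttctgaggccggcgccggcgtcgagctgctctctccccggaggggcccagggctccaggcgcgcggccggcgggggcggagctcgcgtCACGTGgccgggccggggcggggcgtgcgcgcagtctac
*Lpin3*, chr2:160880420-160880699, plus strand: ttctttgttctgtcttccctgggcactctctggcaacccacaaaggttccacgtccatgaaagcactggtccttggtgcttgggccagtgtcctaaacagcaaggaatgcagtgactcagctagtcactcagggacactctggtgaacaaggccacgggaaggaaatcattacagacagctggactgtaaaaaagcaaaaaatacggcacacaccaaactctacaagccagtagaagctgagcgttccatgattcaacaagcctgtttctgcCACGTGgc

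Counted from the start, the *Lpin1* match to AGGTCA lay at -74 to -69. The match to CACGTG lay at -9 to -4 in *Lpin2* and at 23 to 28 in *Lpin3*. RefSeq lists 2 further starts for *Lpin2* and 1 for *Lpin3*, whose windows hold 0 matches to the motifs searched and whose first bases were found in a GENCODE transcript. The windows shown are those with a match, and the first bases of the *Lpin2* stretch shown were not found in a GENCODE transcript of the gene. That stretch lies inside the *Lpin2* gene as GENCODE places it, from 71182560, and not upstream of it. RefSeq windows of 300 bases were found for 7 of the 10 genes, 11 windows in all, and were searched on both strands. *Gpat4*, *Dgat1* and *Dgat2* had no window, so the motif and GC results do not cover them. AGGTCA was in 2 of the 11 windows, that of *Lpin1* and the second of *Gpam*, and in 16.3% of all 32851 mouse windows. For that *Gpam* window too, the bases after the start were not found in a GENCODE transcript of the gene. CACGTG was in 2 of 11 and in 7.15% of all windows. A pair of AGGTCA copies with a base between them (AGGTCANAGGTCA) is the perfect form of the repeat that PPARα binds together with RXR. It was in 0 of 11 and in 0.0396% of all windows. At so low a share, 0 of 11 says nothing about these genes, and imperfect repeats were not searched. TATAAA, the TATA box, was in 0 of 11 and in 13.6% of all windows. These matches describe the letters of the windows and were not tested for binding. The median GC content was 59.0% over the 11 windows and 52.7% over all windows, from 43.7% for *Mogat1* to 80.7% for the second window of *Lpin2*.

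As a group the 10 genes lay high among the 18937 genes with reads. Their median log2 CPM was 7.21 against 1.89 for all genes with reads, and 9 of the 10 were above that median, with *Mogat1* below it. Of the 10 genes, 6 were among the top 10% of genes, and *Lpin1*, *Dgat2* and *Lpin2* were among the top 2%. The median percentile was 95.4 for the 10 genes and 73.6 for the 22 other genes of the pathway with reads, of which *Plpp3*, *Gpd1*, *Acsl1* and *Acsl5* were among the top 10%. Both lists were chosen with earlier results of these data known, and the other list includes relatives with few reads, such as *Dgat2l6*. The medians therefore depend on how the lists were drawn. No test was made of these shares.

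**Figure D1:**
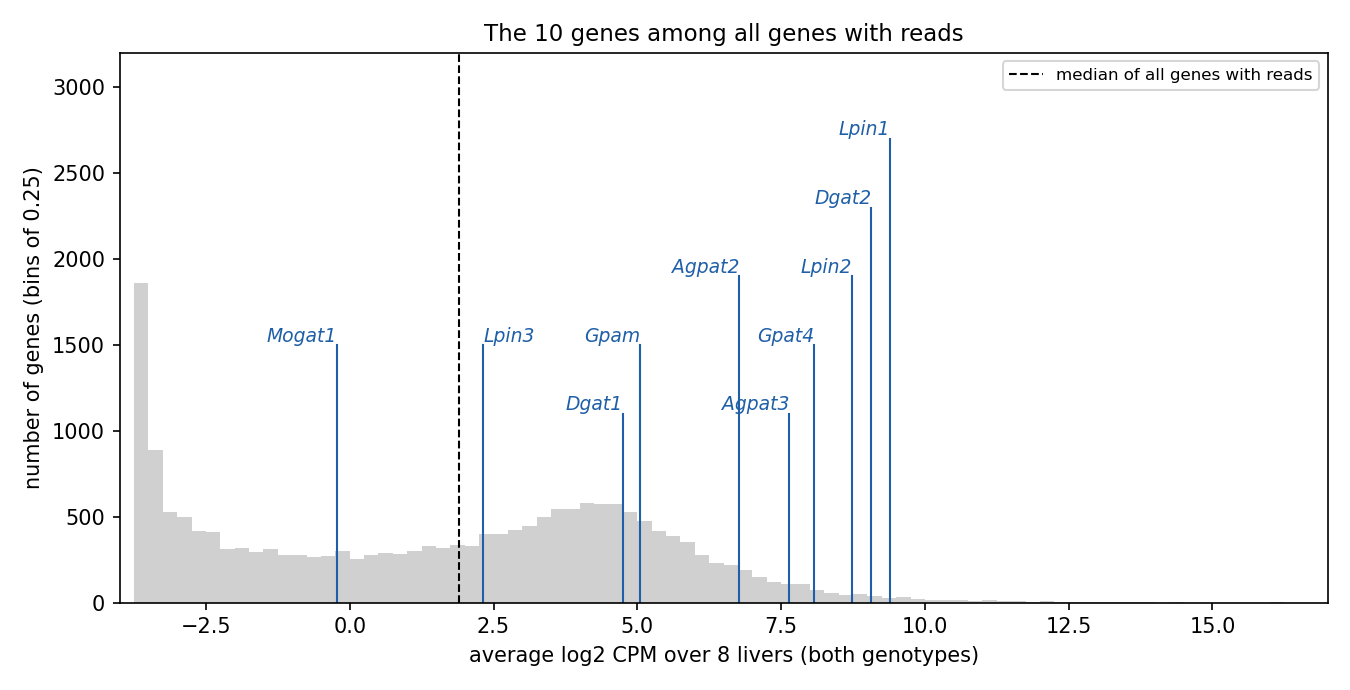
Number of genes (vertical axis) by average log2 CPM over 8 livers (horizontal axis) for the 18937 genes with reads in grey, with the 10 triglyceride synthesis genes as blue lines whose heights carry no value. *Mogat1* at -0.22 is left of the dashed median of 1.89, *Lpin3* at 2.32 is close to it, and *Lpin1* at 9.40 is farthest right.

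To compare different genes, each level was divided by the gene's longest transcript in GENCODE vM21 (build GRCm38, as are all gene positions given) and is given as CPM per kb. Over all genes with reads and a length the median of this level was 1.52, and over the 10 genes it was 41.1. The order, from high to low, was *Dgat2*, *Lpin1*, *Lpin2*, *Agpat2*, *Gpat4*, *Agpat3*, *Dgat1*, *Gpam*, *Lpin3* and *Mogat1*. The spread between mice is unknown, so no neighbours in this order can be said to differ beyond it. The closest neighbours were *Lpin2* and *Agpat2*, whose levels per kb had a ratio of 1.03. It was 0.68 to 3.88 under the other scalings (all exons, coding length, shortest coding transcript or no length). For all of the 10 genes but *Lpin3* and *Dgat1*, the shortest coding transcript was shorter than the longest coding part (379 against 1164 bases for *Dgat2*). Such a transcript cannot hold that coding part, so values under this scaling carry less weight. The intervals given below cover 95% and counting error only. They treat reads estimated from the average log2 CPM as counts. The error of that estimate, 0.97 to 1.03 times the true reads in a simulation, is left out and can exceed the narrowest intervals.

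**Figure D2:**
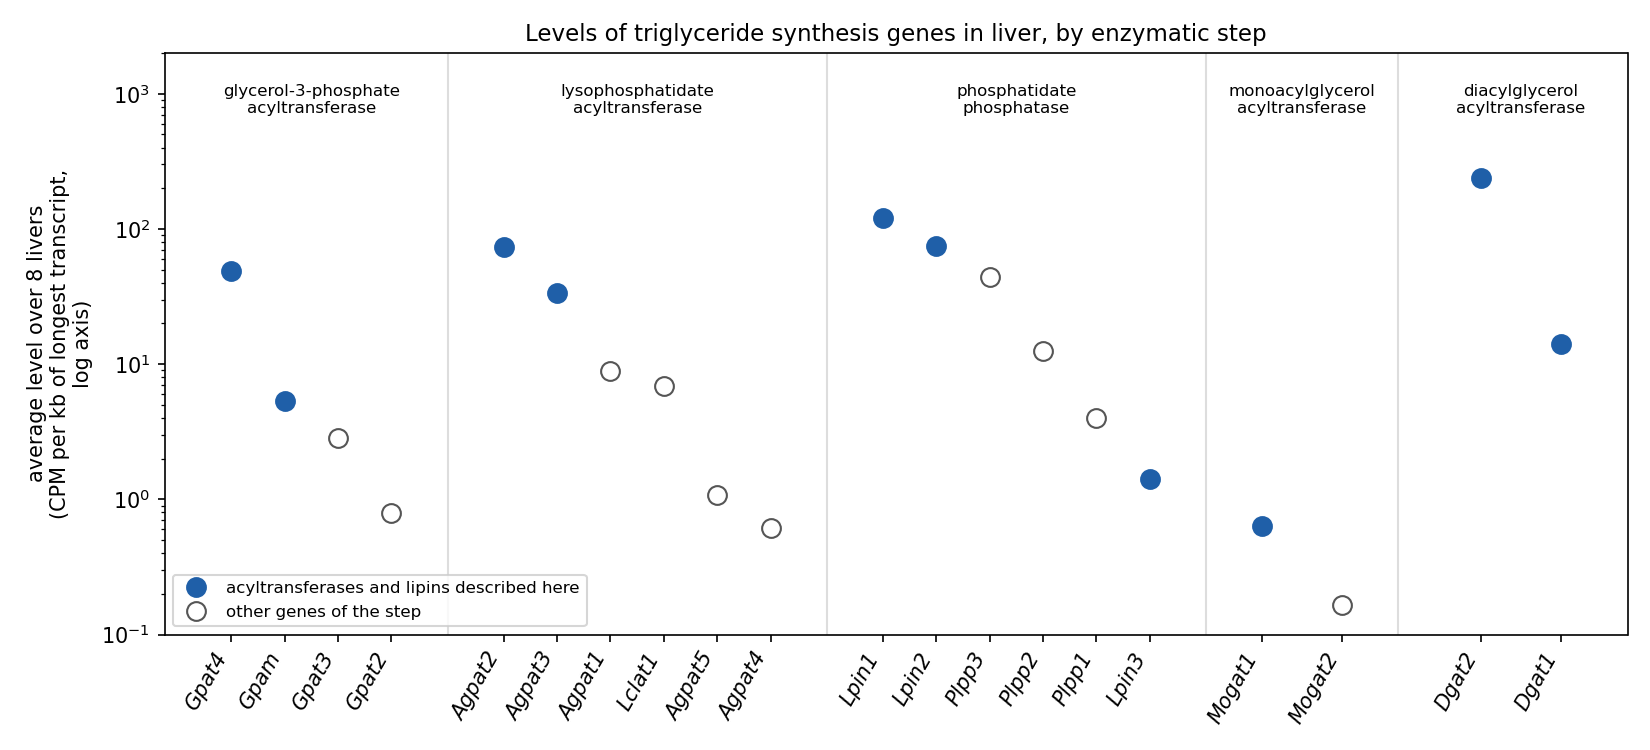
Average level over 8 livers, in CPM per kb of longest transcript on a log axis, for genes grouped by enzymatic step; filled points are the genes described here and open points the other genes of the step. The points span from 237 for *Dgat2* to 0.17 for *Mogat2*, and each step has a member at its top.

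For the first acylation, *Gpat4* was the prevailing transcript. *Gpat4* (ENSMUSG00000031545, chromosome 8, 23171265 to 23208346, minus strand), which encodes a glycerol-3-phosphate acyltransferase of the endoplasmic reticulum, had a log2 CPM of 8.08, from about 7408 reads in each library as estimated from the table's lowest value. *Gpam* (chromosome 19, 55067268 to 55127238, minus strand), the isoform of the outer mitochondrial membrane and a known target of SREBP1c, had a log2 CPM of 5.05 and 906 reads per library. Per kb, *Gpat4* stood at 48.9 and *Gpam* at 5.34, a ratio of 9.15 (8.93 to 9.38) that ran from 6.47 to 14.8 under the other scalings. *Gpat3* and *Gpat2*, the remaining isoforms, stood at 2.86 and 0.79 per kb. *Gpat4* thus held 84.5% of the summed level of the 4 genes and *Gpam* 9.23%.

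For the next acylation, 2 members shared the lead, and which came first depended on the length used. *Agpat2* (chromosome 2, 26593057 to 26604417, minus strand), whose loss causes generalized lipodystrophy in mice and people, had a log2 CPM of 6.77 and 3003 reads per library. *Agpat3* (chromosome 10, 78269178 to 78352489, minus strand), which also acylates other lysophospholipids, had a log2 CPM of 7.64 and 5480 reads per library. The transcripts differ in length, 1489 bases for *Agpat2* and 5980 for *Agpat3*. Per kb of longest transcript *Agpat2* was higher, at 73.4 against 33.4, a ratio of 2.20 (2.17 to 2.24). Per kb of coding sequence the ratio was 0.74, with *Agpat3* higher, and it was 0.55 with no length and 0.52 with the shortest coding transcript. *Agpat1*, a ubiquitous isoform, stood at 8.88 per kb, *Lclat1* at 6.88, *Agpat5* at 1.07 and *Agpat4* at 0.62. An exon of *Agpat2* shares 64 bases with an exon of *Egfl7* on the opposite strand, and the strand setting of the read counting is not given in the sources used here. For *Egfl7*, an endothelial gene, 587 reads per library were estimated.

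The phosphatidate phosphatase step was represented mostly by transcripts of *Lpin1* and *Lpin2*. *Lpin1* (ENSMUSG00000020593, chromosome 12, 16535669 to 16610966, minus strand), whose protein is both a phosphatase and a nuclear coactivator known to work with PPARα in liver, had the highest log2 CPM of the 10 genes, 9.40, with 18556 reads per library. Only 187 genes of the table were higher. *Lpin2* (chromosome 17, 71182560 to 71249817, plus strand), mutated in the inflammatory bone disease Majeed syndrome, had a log2 CPM of 8.73 and 11661 reads per library. *Lpin3* (chromosome 2, 160880670 to 160906002, plus strand), a lipin best known from intestine, had a log2 CPM of 2.32 and 135 reads per library. Per kb the levels were 121 for *Lpin1*, 75.2 for *Lpin2* and 1.42 for *Lpin3*. *Lpin1* was 1.61 times *Lpin2* (interval 1.595 to 1.621) and 85.4 times *Lpin3* (80.4 to 90.7) on this scale. All 4 other scalings tried kept this order of the 3 lipins. Ratios ran from 1.59 to 3.57 for *Lpin1* to *Lpin2* and from 52.5 to 625 for *Lpin1* to *Lpin3*. The highest, 3.57 and 625, came with the shortest coding transcript of *Lpin1*, 707 bases against a coding part of 2772.

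The lipid phosphate phosphatases, membrane enzymes that act on phosphatidate mostly in signalling, were measured beside the lipins. *Plpp3* was the highest of them at 44.2 per kb. *Lpin1* was 2.74 times *Plpp3* (2.71 to 2.77), or 1.58 to 21.6 times under the other scalings. The value of 21.6 came with the shortest coding transcript. *Plpp2* stood at 12.5 and *Plpp1* at 3.97. *Lpin1* held 46.9% of the summed level of the 6 genes, *Lpin2* 29.1%, *Plpp3* 17.1% and *Lpin3* 0.55%. The order of *Lpin2* and *Plpp3* turned when reads were scaled by all exons, to 20.9% and 26.6%, and with coding length they held 26.3% and 25.8%. *Ctdnep1* and *Cnep1r1*, which encode the phosphatase that activates the lipins at the nuclear envelope and its partner, stood at 27.4 and 4.22 per kb.

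Transcripts of the monoacylglycerol route were scarce. *Mogat1* (chromosome 1, 78510991 to 78538173, plus strand) had a log2 CPM of -0.22, the lowest of the 10 genes, from an estimated 172 reads (147 to 200) over all 8 libraries. *Mogat2*, the intestinal isoform, had an estimated 65 reads (50 to 83). Per kb *Mogat1* stood at 0.64 and *Mogat2* at 0.17, a ratio of 3.86 (2.87 to 5.18). It ran from 2.66 to 12.0 under the other scalings, the highest with the shortest coding transcript. The summed level of this step was 0.80 per kb, against 57.9 for the glycerol-3-phosphate acyltransferases. At this depth *Mogat1* has the widest counting interval of the 10 genes relative to its level. An exon of *Mogat1* shares 200 bases with *BC035947* on the opposite strand. No level was available for *BC035947*, and the strand setting of the read counting is not given. Any effect of the overlap on the low *Mogat1* count is therefore unknown.

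For the last acylation, *Dgat2* far exceeded *Dgat1*. *Dgat2* (ENSMUSG00000030747, chromosome 7, 99153658 to 99182719, minus strand), which is linked to use of newly made fatty acids in liver, had a log2 CPM of 9.07 and 14753 reads per library. *Dgat1* (chromosome 15, 76502015 to 76511953, minus strand), a member of an unrelated protein family that also esterifies fatty acids taken up from outside, had a log2 CPM of 4.75 and 736 reads per library. Per kb the levels were 237 and 14.2, a ratio of 16.7 (16.3 to 17.2). With all exons, coding length or no length the ratio was 19.9 to 25.7. With the shortest coding transcript it was 99.8, from 379 bases for *Dgat2* and 1888 for *Dgat1*. *Dgat2* had the highest level per kb of the 10 genes, 1.96 times *Lpin1* (1.95 to 1.98), while with no length the ratio was 0.80. Of its sequence relatives, *Awat2* had 515 reads over all libraries, *Dgat2l6* 1 (0 to 6) and *Awat1* 0 (0 to 4).

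**Figure D3:**
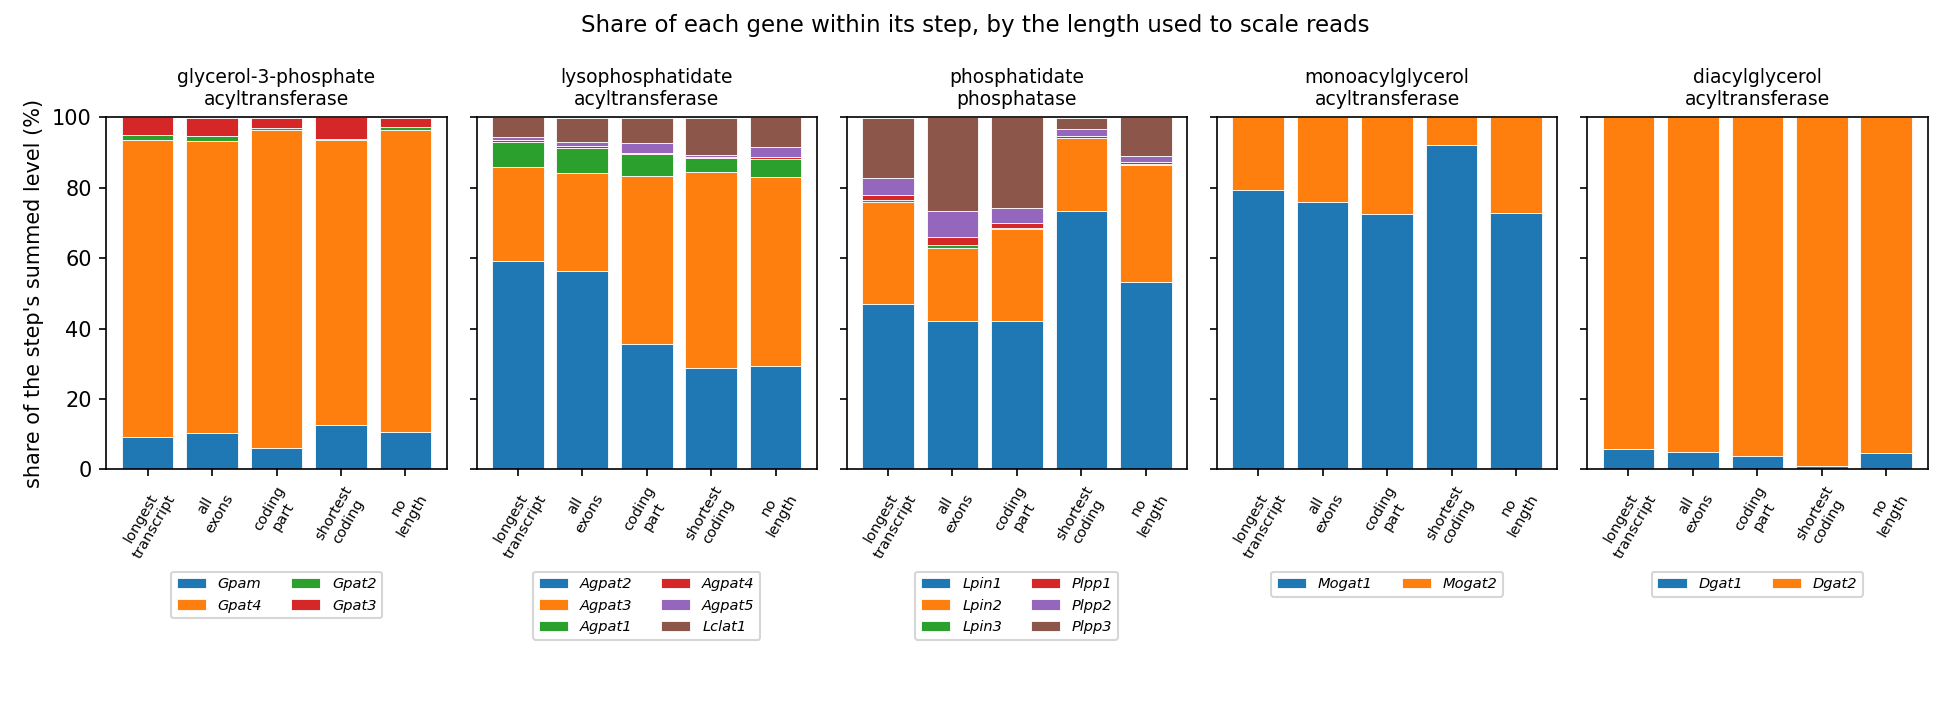
Share of each gene in the summed level of its step (vertical axis, percent) when reads are scaled by the longest transcript, all exons, the coding part, the shortest coding transcript or no length (horizontal axis). *Gpat4*, *Lpin1*, *Mogat1* and *Dgat2* keep the largest share in each bar, while *Agpat2* falls from 59.1% to 28.8% and *Agpat3* passes it under 3 of the 5 choices. For *Agpat2* and *Agpat3* the shortest coding transcript is shorter than the coding part.

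The levels per kb summed over a step were 57.9 for glycerol-3-phosphate acyltransferases, 124 for lysophosphatidate acyltransferases, 258 for phosphatidate phosphatases and 252 for diacylglycerol acyltransferases. The first step had the lowest sum of the main route. A transcript level is not an enzyme activity, and these sums compare genes of different length and number.

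Genes that supply the pathway were measured as well. *Gpd1*, which makes glycerol-3-phosphate from a glycolytic intermediate, stood at 165 per kb and *Gk*, which makes it from glycerol, at 7.36, a ratio of 22.4 (21.9 to 23.0) that ran from 14.8 to 41.3 under the other scalings. *Gpd1l*, a relative of *Gpd1*, stood at 6.83. Of the long-chain acyl-CoA synthetases, which activate fatty acids, *Acsl1* stood at 172 per kb, *Acsl5* at 92.3, *Acsl4* at 5.09 and *Acsl3* at 2.89. *Bscl2*, which encodes seipin, stood at 16.8.

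Some of the genes lie near each other on a chromosome. *Dgat2* and *Mogat2* lie 36.4 kb apart on chromosome 7 on the same strand, with 0 protein-coding genes between them. Per kb *Dgat2* was 1438 times *Mogat2* (1121 to 1852), or 1087 to 8581 times under the other scalings. The value of 8581 came with the shortest coding transcript. *Mogat1* lies 119.7 kb from *Acsl3* on chromosome 1, again with 0 coding genes between, and *Acsl3* was 4.53 times *Mogat1* (3.89 to 5.33), or 5.21 to 14.6 times under the other scalings. *Gpam* and *Acsl5* lie 124.7 kb apart on chromosome 19 on opposite strands, with 2 protein-coding genes between them. Per kb *Acsl5* was 17.3 times *Gpam* (16.9 to 17.7), or 11.9 to 17.3 times under the other scalings.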

How the data were processed

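RNA from 8 livers was made into stranded poly-A libraries and sequenced in pairs. Per the submitters' processing notes and the methods of the study, reads were trimmed with Trimmomatic, checked with FastQC, aligned to GRCm38 (mm10) with STAR, counted with featureCounts and compared with edgeR by the authors; versions, annotation and strand setting are not given in the sources used here. The deposited table holds the authors' average log2 CPM over all libraries, which was used. Its other 4 value columns are the authors' own comparison of the genotypes (log2 fold change, F statistic, p-value and FDR), and these were not used. The table has 0 further columns of values per sample, so the count test planned for V227A against wild-type was not made.

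The lowest log2 CPM, -3.78, marks the 8242 genes without reads. With a prior count of 2 it gives a mean library of 27500000 reads and, for each gene, estimated reads per library. The prior was chosen because 99.9% of 2378 genes with 1 to 5 reads in total then lay within 0.1 of a whole number, against 49.1% with a prior of 1 and 23.5% with 0.5. In a simulation of 2000 genes, those with few reads per library were left out of the comparison. For the rest, the recovered reads were 0.97 to 1.03 times the true reads. This range does not cover genes as low as *Mogat2*. The simulation used the same prior throughout, so it does not check the choice of prior. The size of each library was not analysed here. Intervals are exact Poisson intervals for totals and binomial intervals for ratios, and cover 95% and counting error only. They leave out the error of the read estimates and the spread between mice. Lengths came from GENCODE vM21 (GRCm38) and were found for 17238 genes, 91.0% of those with reads. Promoter windows came from RefSeq (GRCm38.p6). Motifs fixed for proteins were not searched.

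The text names all 10 members and 23 other pathway genes fixed with them, and *Egfl7* and *BC035947*, named after the exon overlaps were seen. Members and lists were chosen with earlier results of these data known, and 7 of the 10 are in the study's own lipogenesis set of 23 genes. Marker lists not given in full above had log2 CPM from 2.07 to 6.36 (Kupffer), -3.69 to 6.43 (intestine) and 2.96 to 6.64 (stellate). The ranges were 3.53 to 5.47 (endothelial), 0.65 to 2.30 (cholangiocyte) and 4.19 to 6.29 (red blood cell). For pancreas, *Cela1* was at 4.90 and *Cpa1* had 0 reads. Python 3.11.15 with pandas 2.3.3, numpy 2.4.6, scipy 1.17.1 and matplotlib 3.10.9 was used.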

Additional observations from a re-analysis of the deposited data

How the results depend on the processing

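No paired analysis was possible because values per library were not analysed here. For the same reason the alternatives planned for the difference between genotypes (another normalization, another count tool, no filter, each replicate left out) were not run. The count of 6 genes among the top 10% was 6 under both other gene backgrounds, while the median percentile of 95.4 was 92.6 among genes with a log2 CPM of at least 0 and 96.8 among all rows of the table. The median of 4241 estimated reads per library was 2121 with a prior count of 1 and 1060 with 0.5, as the formula scales with the prior.

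The gene with the largest share of a step changed in 3 of 25 cases of 5 steps and 5 alternatives, all 3 in the lysophosphatidate acyltransferases. With the members alone the shares were 90.15% for *Gpat4*, 68.76% for *Agpat2*, 61.22% for *Lpin1* and 100% for *Mogat1*. With no length they were 86.03%, 29.41%, 53.13% and 72.72%, and 95.25% for *Dgat2*. For the shares, the other 3 lengths were added after the data were seen. Coding length gave 90.45%, 35.47%, 42.08%, 72.66% and 96.26% for *Gpat4*, *Agpat2*, *Lpin1*, *Mogat1* and *Dgat2*, the shortest coding transcript 81.08%, 28.8%, 73.56%, 92.28% and 99.01%, and all exons 83.06%, 56.27% and 42.05% for the first 3 and 95.21% for *Dgat2*. Of 40 places in the order of the 10 genes over 4 other lengths, 18 did not change. The transcripts in use in these livers are unknown, and depth limits *Mogat1* and *Mogat2* most.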
